A study of Mus musculus and Homo sapiens with 14 samples.

Results

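The integrated stress response and amino acid synthesis genes are 36 mouse genes chosen by symbol from textbook knowledge of the pathway. Earlier results of these data were known at that choice, so counts of them against all genes only describe these data. All 36 were found among the 50559 entries of the EL4 tumour table and the 55969 entries of the EG7 table. They comprise 7 transcription factor genes (Atf3, Atf4, Atf5, Ddit3, Cebpb, Cebpg and Nupr1), 3 genes of feedback and translation (Trib3, Ppp1r15a and Eif4ebp1) and 3 genes of serine synthesis (Phgdh, Psat1 and Psph). A further 6 belong to folate one-carbon metabolism, 4 make asparagine, proline or alanine, 3 act in transsulfuration or glutathione breakdown, 8 are amino acid transporters and 2 encode secreted proteins (Gdf15 and Stc2).

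RNA sequencing was carried out on 5 mouse groups of 2 libraries each, all of them labelled WT. EG7-OVA cells, a mouse T-cell lymphoma line derived from EL4 that carries the ovalbumin gene, were given azacytidine at 1.5 µM, decitabine at 0.2 µM or DMSO, the solvent, with doses at 0, 24 and 48 h and harvest at 72 h. Azacytidine and decitabine are cytosine analogues that trap DNA methyltransferases, and their doses here differed. EL4 tumours were labelled P3 or P0, and neither the meaning of these labels nor the host animals are given in the sources used here. The study, by its title, concerns priming of NK/T-cell lymphoma for PD-1 blockade with inhibitors of DNA methyltransferases.

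In the integrated stress response, kinases that sense amino acid shortage, misfolded protein in the endoplasmic reticulum, double-stranded RNA or lack of haem phosphorylate the translation factor eIF2α. Bulk protein synthesis then slows while the mRNA of the transcription factor ATF4 is translated more, so the level of Atf4 mRNA is not a direct measure of the protein. ATF4 pairs with C/EBP proteins at composite DNA elements and switches on genes that make, import and charge amino acids. The same genes are used heavily by dividing T cells and lymphomas, which need serine, one-carbon units, asparagine and proline for nucleotides and protein.

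RefSeq promoter windows of 300 bases (250 before the start and 50 after it, build GRCm38.p6, the same sequence as mm10) were matched for 30 of the 36 genes. Slc7a3, Slc7a5, Slc1a5, Aldh1l2, Cth and Eif4ebp1 were not matched. The composite C/EBP-ATF element was searched as TGATGNAA on both strands, where N is any base. It was found in the windows of 8 of the 30 genes (26.7%), against 4.51% of all 27025 genes with a window. The form TGATGCAA, a part of the same matches, was found in 6 of 30 (20%), against 1.03% of genes. The palindromic cyclic AMP element TGACGTCA was found in 1 of 30, in Ppp1r15a, against 2.03% of genes. A match is a description of the letters, not a measured binding site.

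The 8 windows with an element are printed below because these genes include 3 of the steeper falls described further on (Chac1, Trib3 and Pycr1), together with Atf3, whose reads were highest with azacytidine. Each is given 5′ to 3′ on the gene's strand, with the element in capitals as TGATGNAA or its reverse complement TTNCATCA. The stretches cover 250 bases before the start for 5 genes and shorter pieces around the element for Nupr1, Slc1a4 and Trib3.
Asns, chr6:7693210-7693459, minus strand: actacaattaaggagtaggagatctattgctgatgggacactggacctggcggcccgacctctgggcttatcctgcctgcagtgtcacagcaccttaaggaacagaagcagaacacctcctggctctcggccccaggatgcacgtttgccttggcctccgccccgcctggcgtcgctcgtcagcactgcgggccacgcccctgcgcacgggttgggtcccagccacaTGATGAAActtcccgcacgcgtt
Chac1, chr2:119350992-119351241, plus strand: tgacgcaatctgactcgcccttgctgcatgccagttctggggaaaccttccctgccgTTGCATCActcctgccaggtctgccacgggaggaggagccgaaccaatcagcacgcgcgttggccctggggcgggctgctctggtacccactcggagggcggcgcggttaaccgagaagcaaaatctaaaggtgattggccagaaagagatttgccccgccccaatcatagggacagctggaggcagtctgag
Slc7a11, chr3:50443614-50443863, minus strand: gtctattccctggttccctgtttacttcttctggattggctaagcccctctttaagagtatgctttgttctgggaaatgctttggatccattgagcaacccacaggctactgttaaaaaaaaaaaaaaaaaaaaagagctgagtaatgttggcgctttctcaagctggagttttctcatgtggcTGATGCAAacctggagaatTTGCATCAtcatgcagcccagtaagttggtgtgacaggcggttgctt
Pycr1, chr11:120643749-120643998, minus strand: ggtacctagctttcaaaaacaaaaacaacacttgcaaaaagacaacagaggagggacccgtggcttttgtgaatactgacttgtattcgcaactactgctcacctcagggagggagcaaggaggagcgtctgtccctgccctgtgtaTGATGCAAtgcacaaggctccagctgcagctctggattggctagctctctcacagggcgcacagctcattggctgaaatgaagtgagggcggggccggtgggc
Atf3, chr1:191183334-191183583, minus strand: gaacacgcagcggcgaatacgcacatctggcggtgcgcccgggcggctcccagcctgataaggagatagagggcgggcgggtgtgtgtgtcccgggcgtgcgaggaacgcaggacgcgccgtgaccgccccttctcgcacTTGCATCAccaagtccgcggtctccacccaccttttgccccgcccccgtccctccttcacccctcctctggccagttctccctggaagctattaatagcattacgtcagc
Trib3, chr2:152344029-152344056, minus strand: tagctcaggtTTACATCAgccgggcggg
Slc1a4, chr11:20332685-20332742, minus strand: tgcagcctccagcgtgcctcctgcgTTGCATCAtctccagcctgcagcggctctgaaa
Nupr1, chr7:126625548-126625605, minus strand: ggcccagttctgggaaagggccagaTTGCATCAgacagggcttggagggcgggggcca
The element began 23 bases before the annotated start in Asns, 193 before it in Chac1, 103 before it in Pycr1 and 110 before it in both Atf3 and Nupr1. Slc7a11 held a pair of elements facing each other, at 66 and 47 bases before the start. In Slc1a4 it began 4 bases before the start, and in Trib3 it lay 15 bases after it. CpG dinucleotides, the sites that DNA methyltransferases act on, had a median of 20 per window over the promoters of these genes, against 7 over all promoters. The lowest values were in Gdf15, whose promoters held 1 and 7, in Slc7a11 with 4 and in Nupr1 with 6.

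**Figure D1:**
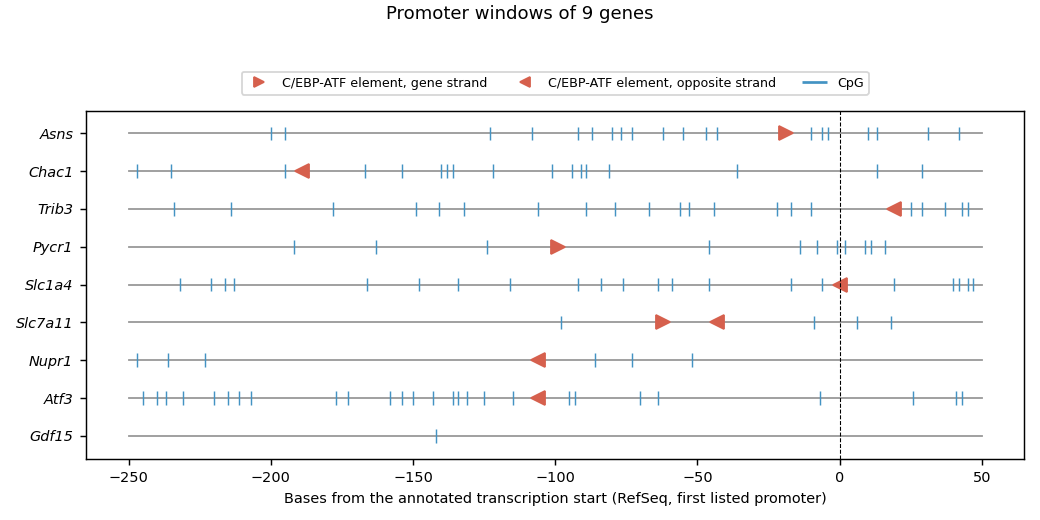
Promoter windows of the 8 genes with a C/EBP-ATF element and of Gdf15, drawn to scale from 250 bases before to 50 after the annotated start (x axis, bases from the start). Red triangles mark the element and point along its strand, and blue ticks mark CpG dinucleotides. Slc7a11 has 2 triangles and only 4 CpGs, and Gdf15 has 1 CpG and no triangle.

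Library totals were 15690747 to 21048979 counts in EG7 cells and 21621580 to 25328708 counts in the tumours. Levels are given in CPM, the counts of a gene scaled to its library total, with library sizes scaled by the TMM method. The spread between replicates, as the biological coefficient of variation, was 0.244 in EG7 cells and 0.188 in the tumours. Nothing in the labels states that the replicates of a group are separate cultures or animals. The p-values therefore reflect only how far these libraries differ, which may be technical. Fold changes are log2 values ± SE from edgeR's quasi-likelihood test (n = 2 libraries per group), with p-values adjusted by Benjamini-Hochberg over all genes tested, and a gene passed at an adjusted p under 0.05. In bulk RNA, fewer cells of a type and less RNA per cell cannot be told apart. All 8 T-cell markers were detected in every library and summed to between 1610 and 2340 CPM in EG7 cells and between 1840 and 2470 CPM in the tumours. Cd247, a chain of the T-cell receptor complex, was the low one in EG7 cells, at 1.26 to 8.97 CPM, and Cd3g, another chain, rose there by 0.95 ± 0.15 with azacytidine and 0.98 ± 0.15 with decitabine. Of 12 macrophage markers, C1qa, C1qb and C1qc had no read in any EG7 library. Macrophage markers summed to 33.2 and 29.8 CPM with azacytidine, 63.1 and 48.6 CPM with decitabine and 13.9 and 24.1 CPM with DMSO. Fibroblast markers summed to 80.4 and 32.8 CPM with azacytidine, 70.1 and 55 CPM with decitabine and 3.37 and 32.4 CPM with DMSO, with Col3a1 and Dcn at 0 throughout. These sums do not show that macrophages or fibroblasts were present among the EG7-OVA cells. The part of these reads in the results below was not tested.

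Both drugs were given to EG7-OVA cells to ask how DNA methyltransferase inhibition changes their RNA. Most of the amino acid and one-carbon genes fell with azacytidine: of the 35 genes tested, 22 fell, where 6.70% of all 19123 genes tested fell and 13.6% rose (20.3% in either direction). Of the other genes, 4 were called higher (Atf3, Cebpb, Aldh1l2 and Gdf15) and 9 did not pass. Atf3, Aldh1l2, Gdf15 and Slc7a3 would not have passed the filter on low counts with the DMSO libraries alone, so they could enter the test only by being high with a drug. Without these 4 genes, 22 of 31 fell, 1 rose (Cebpb) and 8 did not pass. The falls ran from 65.4% of the DMSO level to 21.8% of it. The median log2 fold change over the 35 genes was -0.85, against 0.033 over all genes tested. The libraries given azacytidine lay below both DMSO libraries for 27 of the 35 genes and above both for 6, Atf3, Aldh1l2, Gdf15 and Slc7a3 among them, where 27.4% and 33.6% of all genes did so (61.1% in all). Atf3 and Slc7a3 passed the filter only through the azacytidine libraries, and Cth, with at most 3 reads in a library, was not tested.

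With decitabine, compared with the same DMSO libraries, 21 of the 35 genes fell, 2 were called higher (Gdf15 and Aldh1l2) and 12 did not pass, where 4.30% of all genes tested fell and 12.4% rose (16.7% in either direction). Without the 4 genes below the filter in DMSO, 21 of 31 fell, 0 rose and 10 did not pass. Here the falls ran from 66.4% of the DMSO level to 16.8% of it, and the median log2 fold change was -0.96, against 0.036 over all genes. Decitabine libraries lay below both DMSO libraries for 27 genes and above both for 4, where 25.6% and 33.2% of all genes did so (58.8% in all). Those 4 were Atf3, Aldh1l2, Gdf15 and Slc7a3, the genes below the filter in DMSO, so their place above DMSO is not read as a result. Since the drugs share their controls, their values are given side by side below and likeness between them is not measured.

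**Figure D2:**
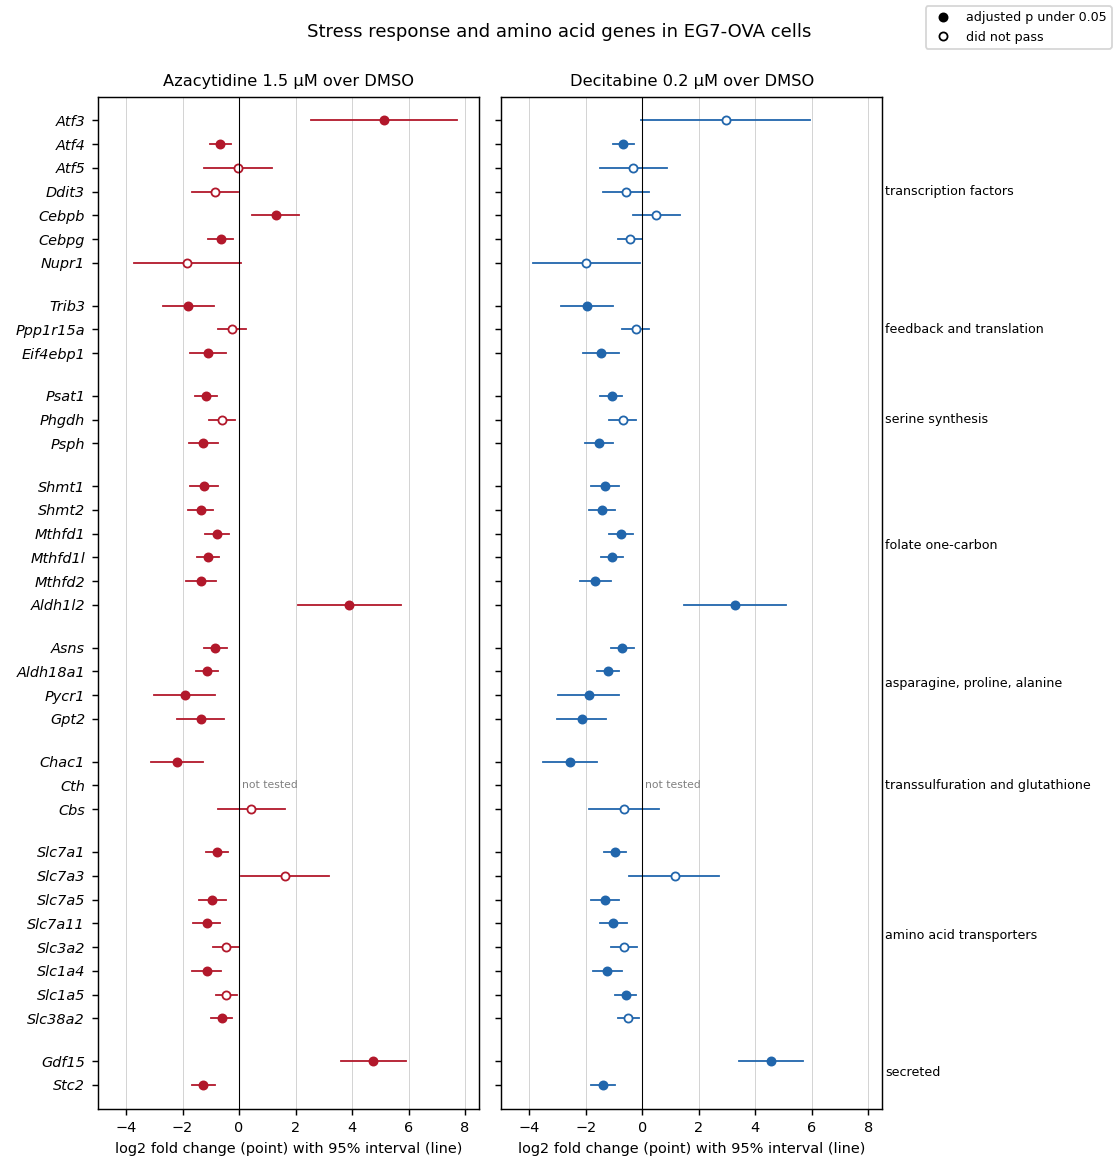
Log2 fold change (x axis) of each gene, grouped by role, with azacytidine over DMSO on the left and decitabine over DMSO on the right. Points are estimates from 2 libraries per group, lines are 95% intervals from the fit, filled points passed an adjusted p of 0.05 and open points did not. Most filled points lie left of 0, while Gdf15 and Aldh1l2 lie right of it in both panels and Atf3 rests on 1 read in DMSO. Gdf15, Aldh1l2 and Atf3 could enter the test only by being high with a drug.

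Serine synthesis starts from a glycolytic intermediate and runs through Phgdh, Psat1 and Psph in turn. Psat1, the transaminase of the second step, had 280 and 242 CPM with azacytidine, 299 and 251 CPM with decitabine, and 567 and 607 CPM with DMSO. All 4 drug libraries lay far below both DMSO libraries, and the fold changes were -1.17 ± 0.17 with azacytidine (adjusted p = 0.0014) and -1.09 ± 0.17 with decitabine (0.00241). Psph, the phosphatase of the last step, had 19.3 and 14.2 CPM with azacytidine, 12.9 and 14.8 CPM with decitabine, and 40.8 and 39.3 CPM with DMSO. It fell by 1.26 ± 0.22 and by 1.53 ± 0.23 on the log2 scale with azacytidine and decitabine (n = 2 each), and its drug and DMSO libraries did not overlap. Its exons share 10.4% of their bases with Cct6a on the opposite strand, and whether the counting used strand is not stated.

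Phgdh, the dehydrogenase that commits carbon to the pathway, stood apart from these 2 enzymes by its test. It had 388 and 251 CPM with azacytidine, 295 and 305 CPM with decitabine, and 520 and 449 CPM with DMSO. The drug libraries were below the DMSO libraries, but the changes of -0.60 ± 0.21 (azacytidine, adjusted p = 0.0745) and -0.69 ± 0.21 (decitabine, 0.0519) did not pass. DESeq2 called both (adjusted p = 0.0306 with azacytidine and 0.00968 with decitabine).

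One-carbon units from serine enter the folate cycle in mitochondria and the cytosol. All 5 of the enzymes on the synthesis side, Shmt1, Shmt2, Mthfd1, Mthfd1l and Mthfd2, fell with each drug. Shmt2, the mitochondrial serine hydroxymethyltransferase, had 145 and 99.4 CPM with azacytidine, 124 and 110 CPM with decitabine, and 303 and 325 CPM with DMSO, which gave -1.36 ± 0.20 (azacytidine) and -1.42 ± 0.20 (decitabine). Mthfd2, the mitochondrial dehydrogenase and cyclohydrolase that acts after it, had 121 and 76.4 CPM with azacytidine, 89.2 and 68.1 CPM with decitabine, and 224 and 272 CPM with DMSO. Its changes were -1.33 ± 0.24 with azacytidine and -1.66 ± 0.24 with decitabine, and every drug library was below every DMSO library. Mthfd1l, which releases formate from mitochondria, had 102 and 113 CPM with azacytidine, 100 and 122 CPM with decitabine, and 249 and 213 CPM with DMSO (-1.10 ± 0.18 and -1.06 ± 0.18). Shmt1, the cytosolic form, had 62.6 and 53.7 CPM with azacytidine, 55.3 and 54.6 CPM with decitabine, and 167 and 107 CPM with DMSO. It changed by -1.24 ± 0.22 with azacytidine and by -1.32 ± 0.22 with decitabine, and the DMSO libraries were themselves far apart. Mthfd1, the trifunctional cytosolic enzyme, changed least of the 5, by -0.77 ± 0.19 with azacytidine (adjusted p = 0.0189) and -0.74 ± 0.19 with decitabine (0.0254).

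Aldh1l2, a mitochondrial enzyme that oxidises formyl folate to carbon dioxide, was near the limit of detection with DMSO. It had 3.86 and 3.81 CPM with azacytidine, 1.07 and 3.88 CPM with decitabine, and 0.0503 and 0.449 CPM with DMSO, the last from 1 and 9 reads. Its log2 fold change was 3.90 ± 0.81 with azacytidine and 3.27 ± 0.81 with decitabine. Aldh1l2 could enter the test only by being high with a drug, so its calls are counted above but not read as results. Part of its exon sequence, 14.1%, overlaps D10Wsu102e on the opposite strand.

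All 4 genes that make asparagine, proline or alanine fell with each drug. Asns, asparagine synthetase, had 748 and 618 CPM with azacytidine, 783 and 710 CPM with decitabine, and 1140 and 1310 CPM with DMSO. The groups did not overlap, with changes of -0.84 ± 0.18 (azacytidine, adjusted p = 0.0092) and -0.71 ± 0.18 (decitabine, 0.0229). Aldh18a1, the first enzyme of proline synthesis from glutamate, had 179 and 141 CPM with azacytidine, 156 and 145 CPM with decitabine, and 335 and 370 CPM with DMSO (-1.14 ± 0.18 and -1.23 ± 0.18). Pycr1, the last enzyme of that route, had 4.05 and 3.34 CPM with azacytidine, 3.98 and 3.55 CPM with decitabine, and 6.84 and 21.3 CPM with DMSO. Gpt2, the mitochondrial alanine transaminase, had 12.6 and 8.94 CPM with azacytidine, 6.42 and 6.12 CPM with decitabine, and 16.5 and 38.8 CPM with DMSO. For both genes the drug libraries were close together while DMSO replicate 3 was well above DMSO replicate 2. Pycr1 changed by -1.93 ± 0.49 with azacytidine and -1.90 ± 0.48 with decitabine, and Gpt2 by -1.36 ± 0.38 and -2.14 ± 0.39.

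Chac1, which breaks down glutathione inside the cell, showed the largest fall of the 35 tested genes with each drug. It had 12 and 5.72 CPM with azacytidine, 5.96 and 7.71 CPM with decitabine, and 25.9 and 55.2 CPM with DMSO. Its level with azacytidine was 21.8% of that with DMSO (-2.20 ± 0.42, adjusted p = 0.00528), and with decitabine 16.8% (-2.57 ± 0.43, 0.00306). Cbs, which starts transsulfuration, had 1.31 and 1.67 CPM with azacytidine, 1.02 and 0.383 CPM with decitabine, and 1.11 and 1.1 CPM with DMSO, and did not pass with either drug. Cth, the next enzyme of that pathway, had between 0 and 3 reads in each library.

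Of the 8 transporter genes, 5 fell with azacytidine (Slc7a1, Slc7a5, Slc7a11, Slc1a4 and Slc38a2) and 5 with decitabine (Slc7a1, Slc7a5, Slc7a11, Slc1a4 and Slc1a5). Slc7a11 encodes xCT, which imports cystine in exchange for glutamate. It had 71 and 57.8 CPM with azacytidine, 65.5 and 75 CPM with decitabine, and 114 and 172 CPM with DMSO, with changes of -1.15 ± 0.22 (adjusted p = 0.0051) and -1.02 ± 0.22 (0.0106). Slc7a5, the light chain of the LAT1 carrier of large neutral amino acids, had 259 and 173 CPM with azacytidine, 147 and 186 CPM with decitabine, and 409 and 426 CPM with DMSO. That was a change of -0.95 ± 0.21 with azacytidine and -1.32 ± 0.22 with decitabine, and no drug library reached a DMSO library. Slc3a2, the heavy chain that both xCT and LAT1 need, had 370 and 274 CPM with azacytidine, 241 and 320 CPM with decitabine, and 425 and 457 CPM with DMSO. Its values were lower with each drug but did not pass (adjusted p = 0.152 with azacytidine and 0.0551 with decitabine).

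Slc1a4, an exchanger of small neutral amino acids, had 45.5 and 37 CPM with azacytidine, 36.3 and 40.8 CPM with decitabine, and 71 and 111 CPM with DMSO (-1.14 ± 0.23 and -1.24 ± 0.23). Slc7a1, a carrier of cationic amino acids, changed by -0.77 ± 0.17 with azacytidine and -0.96 ± 0.17 with decitabine. Slc38a2 carries glutamine and other neutral amino acids with sodium, and it fell with azacytidine (-0.61 ± 0.16, adjusted p = 0.0251), while its change of -0.49 ± 0.16 with decitabine did not pass (0.0712). Slc1a5, a glutamine exchanger, had the opposite pattern of calls, with -0.45 ± 0.17 (adjusted p = 0.0824) in azacytidine and -0.59 ± 0.17 (0.0355) in decitabine. Neither gene passed a direct test between the drugs. Slc7a3, another cationic carrier, was near the limit of detection, with 8 and 15 reads with azacytidine, 8 and 11 reads with decitabine, and 4 and 5 reads with DMSO.

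Among the transcription factors, Atf4 itself was lower with each drug. It had 233 and 205 CPM with azacytidine, 205 and 230 CPM with decitabine, and 364 and 328 CPM with DMSO. The groups did not overlap, and the changes were -0.66 ± 0.17 (adjusted p = 0.0189) and -0.67 ± 0.17 (0.0204). Cebpg, a C/EBP partner of ATF4, fell with azacytidine (-0.65 ± 0.20, adjusted p = 0.0401), and its change of -0.44 ± 0.19 with decitabine did not pass (0.161). Ddit3, which encodes the pro-apoptotic factor CHOP, had 3.92 and 5.13 CPM with azacytidine, 4.84 and 6.15 CPM with decitabine, and 5.91 and 10.4 CPM with DMSO. Its lower DMSO library lay below one decitabine library, and it did not pass with either drug (adjusted p = 0.142 with azacytidine and 0.342 with decitabine). Ddit3 shares 10.9% of its exon bases with other entries, among them another Ddit3 entry on the same strand and Mars on the opposite strand.

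Cebpb, another C/EBP gene, had 43.3 and 19.1 CPM with azacytidine, 14.9 and 20.8 CPM with decitabine, and 15 and 10.3 CPM with DMSO. It rose by 1.30 ± 0.37 on the log2 scale with azacytidine (adjusted p = 0.0339), mostly through azacytidine replicate 1, while decitabine and DMSO overlapped. Tmem189 on the opposite strand shares 20.7% of its exon bases, the largest such overlap of the set. Atf3, a stress-induced repressor and activator, had 10 and 26 reads with azacytidine, 2 and 7 reads with decitabine, and 1 and 0 reads with DMSO. Scaled to library size, the azacytidine libraries together had 44.9 times the level of the DMSO libraries, with a 95% counting interval of 7.56 to 1820, and the decitabine libraries 9.57 times (1.33 to 420). Since it entered the test only through the azacytidine libraries, its call is kept in the counts but not read as a result. Atf5 and Nupr1 did not pass with either drug, and both differed widely between the DMSO libraries. Nupr1, a small chromatin-associated stress factor, had 31 and 25 reads with azacytidine, 30 and 30 reads with decitabine, and 18 and 234 reads with DMSO.

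Trib3, a pseudokinase that ATF4 induces and that dampens ATF4 in turn, had 15.4 and 10.3 CPM with azacytidine, 9.02 and 13.8 CPM with decitabine, and 25.4 and 63.6 CPM with DMSO. It fell by 1.79 ± 0.41 (azacytidine, adjusted p = 0.0125) and by 1.97 ± 0.41 (decitabine, 0.00993) on the log2 scale, and its drug libraries stayed below both DMSO libraries. Eif4ebp1, the repressor of cap-dependent translation, had 43.2 and 22.6 CPM with azacytidine, 25.3 and 25.7 CPM with decitabine, and 59.8 and 81.7 CPM with DMSO (-1.11 ± 0.28 and -1.47 ± 0.29). Ppp1r15a, known as GADD34, directs the phosphatase that reverses eIF2α phosphorylation. Its level was 84.1% of DMSO with azacytidine and 84.7% with decitabine, and neither change passed (adjusted p = 0.473 and 0.519).

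Of the secreted factors, only the fall of Stc2 is read as a result. Gdf15, a stress cytokine of the TGF-β family that acts on appetite, had 20.9 and 9.3 CPM with azacytidine, 9.64 and 16.5 CPM with decitabine, and 0.503 and 0.598 CPM with DMSO. Every drug library was far above both DMSO libraries, which held 10 and 12 reads. The log2 fold change of Gdf15 was 4.76 ± 0.51 with azacytidine (27.1 times) and 4.55 ± 0.51 with decitabine (23.5 times). Gdf15 could enter the test only by being high with a drug, so its calls are counted above but not read as results. Stc2, stanniocalcin 2, had 32 and 26.5 CPM with azacytidine, 25.7 and 28.1 CPM with decitabine, and 75.1 and 64.8 CPM with DMSO. It fell by 1.26 ± 0.19 with azacytidine and by 1.38 ± 0.19 with decitabine on the log2 scale, with no overlap.

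**Figure D3:**
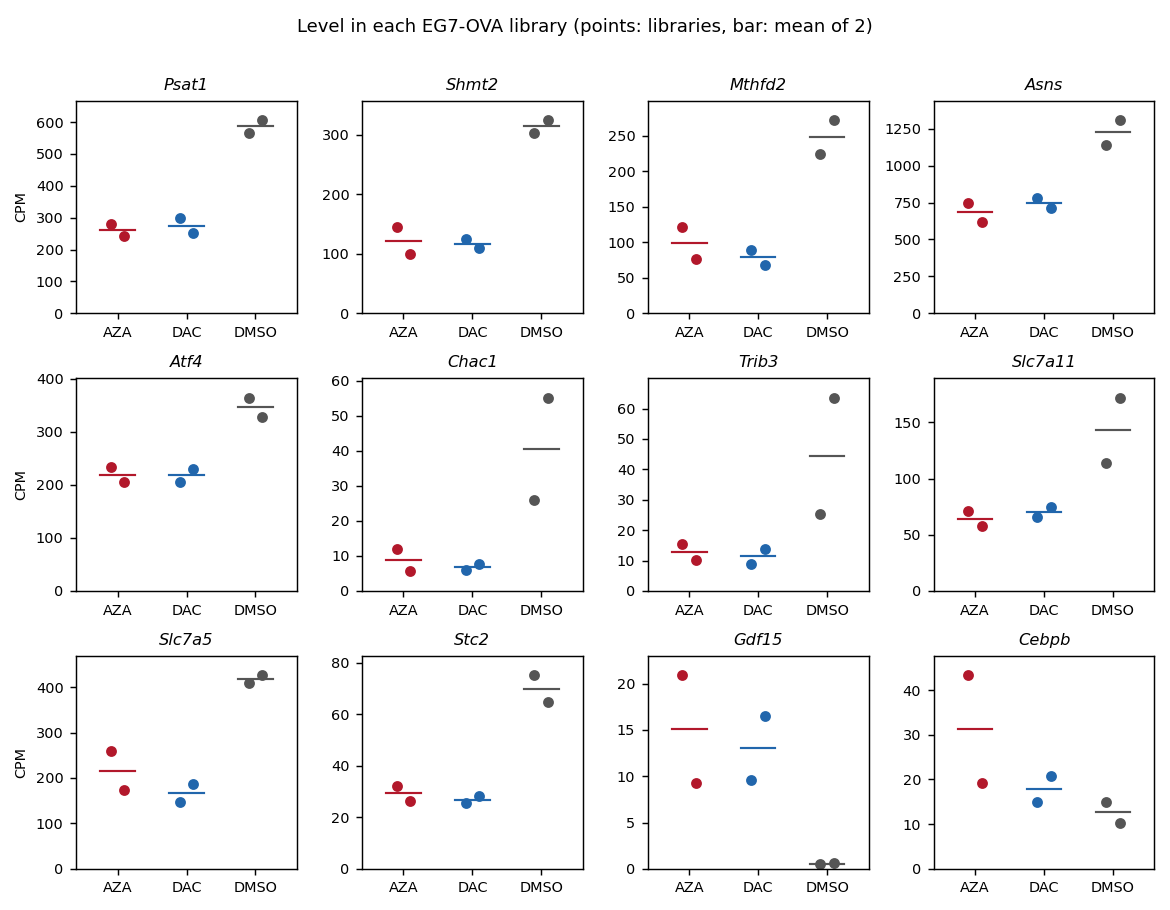
Level in CPM (y axis, from 0) of 12 genes in each EG7-OVA library given azacytidine (AZA), decitabine (DAC) or DMSO. Points are single libraries and bars are the mean of the 2. In 10 of the panels both drugs lie below DMSO, Gdf15 lies above it, and Cebpb is high in 1 azacytidine library.

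Per kilobase of merged exons, Asns had the highest level of the 36 genes in each EG7 group, at 250 CPM per kb with azacytidine, 273 with decitabine and 448 with DMSO. Phgdh had the next highest mean, at 129, 121 and 195 CPM per kb in the same groups, and then Atf4, at 92.9, 92.2 and 147. The libraries of Asns and Phgdh did not overlap in any of these groups, so the first place in the order was not within their spread. The places after it were less distinct. Libraries of Phgdh and Slc3a2 overlapped with azacytidine, those of Atf4 and Slc3a2 with azacytidine and with decitabine, and those of Atf4 and Psat1 with DMSO. Of the 8 genes whose window held the C/EBP-ATF element, 6 fell with azacytidine and 1 did not pass, with Atf3 the other one. Of the 22 genes without it, 14 fell, 2 were called higher (Cebpb and Gdf15) and 6 did not pass. With decitabine, 6 of the 8 fell and 2 did not pass. Of the 22 without it, 12 fell, 1 was called higher (Gdf15) and 9 did not pass.

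Single libraries carried part of the calls with each drug. Fits that leave 1 library in a group have less power, and calls over all genes also dropped in some of them. The losses given here and for decitabine are therefore not read as particular to this set. Without azacytidine replicate 2, 13 of the 26 calls with azacytidine were lost (Asns, Atf3, Atf4, Cebpg, Eif4ebp1, Gpt2, Mthfd1, Pycr1, Slc1a4, Slc38a2, Slc7a1, Slc7a5 and Trib3, at adjusted p = 0.0585 to 0.162), which left 10 genes lower. Without azacytidine replicate 1, 7 were lost (Atf4, Cebpb, Cebpg, Gpt2, Mthfd1, Pycr1 and Slc38a2, 0.0735 to 0.378), and the rise of Cebpb was then 0.56 on the log2 scale. Leaving out DMSO replicate 2 lost Atf4, Mthfd1 and Slc38a2 (0.0709 to 0.125), and leaving out DMSO replicate 3 lost Cebpb, Cebpg, Eif4ebp1, Gpt2, Pycr1 and Trib3 (0.0534 to 0.206). Calls that passed in each of these fits numbered 12, namely Aldh18a1, Aldh1l2, Chac1, Gdf15, Mthfd1l, Mthfd2, Psat1, Psph, Shmt1, Shmt2, Slc7a11 and Stc2. No call changed direction. In azacytidine replicate 2, 29 of the 35 tested genes were lower than in replicate 1 and 6 higher (median log2 gap -0.29). Over all genes, 50.5% were higher in that replicate. Decitabine replicate 2 was higher for 23 and lower for 12, where 52.9% of all genes were higher. DMSO replicate 3 was higher than replicate 2 for 21 and lower for 14, where 45.9% of all genes were higher. Aldh1l2, Atf3 and Gdf15 could enter the test only by being high with a drug, so their calls are not read as results.

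For decitabine, leaving out replicate 1 lost Asns, Atf4, Mthfd1, Pycr1, Slc1a5 and Trib3 (adjusted p = 0.0505 to 0.177), and leaving out replicate 2 lost Aldh1l2, Asns, Atf4, Mthfd1, Pycr1 and Slc1a5 (0.078 to 0.19). The fits without DMSO replicate 2 lost Aldh1l2, Atf4, Mthfd1 and Slc1a5 (0.0699 to 0.184), those without DMSO replicate 3 lost Pycr1 (0.142), and those without either azacytidine library lost Mthfd1 and Slc1a5 (0.055 to 0.066). Of the 23 calls, 16 passed in every one of these fits: Aldh18a1, Chac1, Eif4ebp1, Gdf15, Gpt2, Mthfd1l, Mthfd2, Psat1, Psph, Shmt1, Shmt2, Slc1a4, Slc7a1, Slc7a11, Slc7a5 and Stc2. Their directions were the same throughout. Here too, the calls of Aldh1l2 and Gdf15 are not read as results.

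A direct test of azacytidine against decitabine called none of the 35 genes in edgeR, limma-voom or DESeq2, and at these doses percent called over all genes was 0 in edgeR. At an unadjusted p under 0.05 edgeR gave 1 of the 35 genes, Atf3, which the azacytidine libraries alone brought into the test, and 1218 of all genes. DESeq2 called 177 genes in all. The intervals of the difference were wide enough to hold sizeable effects: the log2 ratio of azacytidine to decitabine was 0.37 for Chac1 (95% interval -0.56 to 1.31), 0.33 for Mthfd2 (-0.20 to 0.86), -0.08 for Psat1 (-0.46 to 0.30) and 0.78 for Gpt2 (-0.07 to 1.63). The azacytidine libraries lay above both decitabine libraries for Atf3, Gpt2 and Cbs and below both for none, where 17.4% of all genes lay above, 17.6% below and 35.0% either way.

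Other genes around the pathway were read from lists by function. Shares over all genes in the EG7 fits without a library are not given, so counts from those fits are not read as results about a list. Aminoacyl-tRNA synthetases load amino acids onto tRNA, and those of the cytosol are known ATF4 targets in part. Of 20 tested, 13 fell with azacytidine and 7 did not pass (median -0.75), where 6.70% of all genes fell. With decitabine 15 fell and 5 did not pass (median -0.73), where 4.30% of all genes fell. Lars1, the leucine enzyme, averaged 109 ± 3.25 CPM with azacytidine and 262 ± 2.73 CPM with DMSO (SD, n = 2), a change of -1.26 ± 0.16, and it changed by -1.20 ± 0.16 with decitabine. Eprs1 (glutamate and proline) changed by -1.03 ± 0.16 with azacytidine and -0.87 ± 0.16 with decitabine, and Yars1 (tyrosine) by -1.03 ± 0.16 and -1.16 ± 0.16. These counts fell to 3 without azacytidine replicate 2, to 8 without azacytidine replicate 1 or DMSO replicate 2, and, for decitabine, to 6 without decitabine replicate 2, 10 without decitabine replicate 1 and 8 without DMSO replicate 2.

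**Figure D4:**
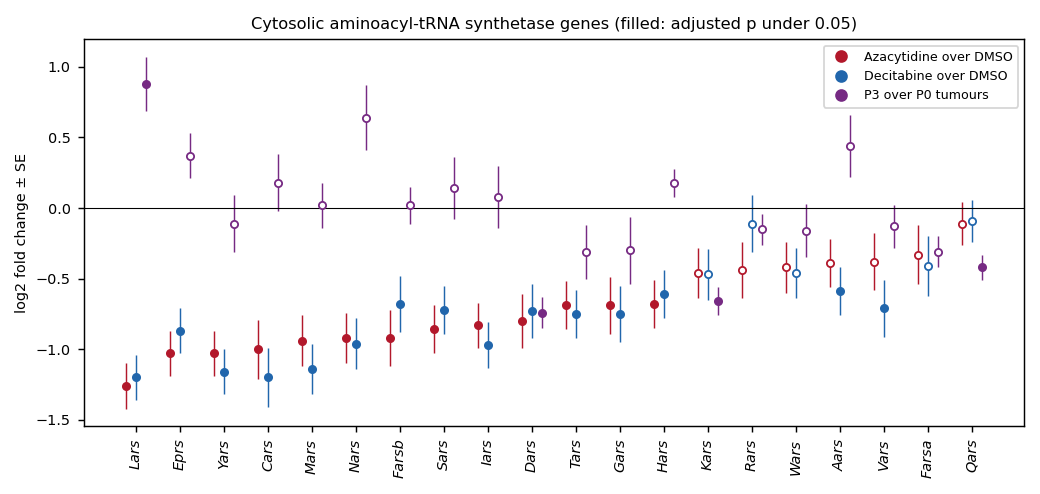
Log2 fold change ± SE (y axis) of 20 cytosolic aminoacyl-tRNA synthetase genes with azacytidine over DMSO (red), decitabine over DMSO (blue) and in P3 over P0 tumours (purple), ordered by the azacytidine value. Filled points passed an adjusted p of 0.05. Every red and blue point lies below 0, while the purple points lie on both sides with 1 filled above 0 (Lars) and 3 filled below it.

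Of 16 other folate and one-carbon genes tested, 7 fell with azacytidine and 9 did not pass, where 6.70% of all genes fell. With decitabine 6 fell and 10 did not pass, where 4.30% of all genes fell. The 7 azacytidine calls fell to 1 without either azacytidine library or without DMSO replicate 2, and the 6 decitabine calls to 3 without either decitabine library and 2 without DMSO replicate 2. Other amino acid and glutathione genes gave 2 higher and 2 lower of 20 with azacytidine, and 1 higher and 2 lower with decitabine. These counts were not far from the shares over all genes. With azacytidine these became 1 higher and 5 lower without DMSO replicate 3, 0 higher without azacytidine replicate 1 and 1 lower without azacytidine replicate 2. With decitabine none was higher in any fit that left out a library, and those lower became 4 without DMSO replicate 3 and 1 without DMSO replicate 2 or either decitabine library. Bcat1, the cytosolic branched-chain transaminase, averaged 135 ± 15.5 CPM with azacytidine and 323 ± 6.48 CPM with DMSO (-1.26 ± 0.16), and changed by -1.36 ± 0.16 with decitabine.

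The remaining lists did not share a single direction. Over all genes, 13.6% rose and 6.70% fell with azacytidine, and 12.4% rose and 4.30% fell with decitabine. Of 24 other ATF4 targets tested, 7 rose, 7 fell and 10 did not pass with azacytidine, and the counts with decitabine were also 7, 7 and 10. Ddit4, an inhibitor of mTORC1 signalling, averaged 311 ± 64.5 CPM with azacytidine and 88.3 ± 30.2 CPM with DMSO (1.82 ± 0.29), and it changed by 1.62 ± 0.29 with decitabine. Atf7ip, a partner of the histone methyltransferase SETDB1, changed by 1.65 ± 0.17 with azacytidine and 1.36 ± 0.16 with decitabine. Arrdc4, an arrestin-like gene, averaged 9.55 CPM with azacytidine and 3.88 CPM with decitabine, with no read in DMSO. It could therefore enter the test only by being high with a drug, so its calls are counted in the 7 rises but not read as results. Among 17 genes of eIF2, its exchange factor, kinases and phosphatase, 4 fell with azacytidine and 13 did not pass, and with decitabine 2 rose and 2 fell. Eif2s2, the β subunit of eIF2, changed by -1.29 ± 0.18 with azacytidine and -1.03 ± 0.18 with decitabine. In the ATF6 and IRE1 arms of the unfolded protein response with their chaperones, 2 of 22 genes rose with azacytidine and 20 did not pass. Those rising were Syvn1, a ubiquitin ligase of the endoplasmic reticulum (1.01 ± 0.20), and Xbp1, the IRE1 target (0.50 ± 0.15). With decitabine 3 rose and 19 did not pass. The rises in this list were not far from the shares over all genes with either drug. Single libraries moved these small counts too: the 7 falls among ATF4 targets became 2 without either azacytidine library, and with decitabine they became 2 without decitabine replicate 1, 1 without decitabine replicate 2, 3 without DMSO replicate 2 and 4 without DMSO replicate 3. The 7 rises became 3 without decitabine replicate 2. The 4 falls of eIF2 genes with azacytidine became 1 without azacytidine replicate 1 and 2 without azacytidine replicate 2 or DMSO replicate 2, where 1 other rose. With decitabine the 2 rises of eIF2 genes became 1 without DMSO replicate 2 and 0 without any other library, and their 2 falls became 5 without DMSO replicate 3 and 1 without DMSO replicate 2 or decitabine replicate 2. In the ATF6 and IRE1 list, the 2 rises with azacytidine became 0 without azacytidine replicate 1 and 1 without any other library, and the 3 with decitabine became 1 without either decitabine library.

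The comparison of P3 with P0 tumours asks how EL4 tumours with these labels differ. Few of the stress and amino acid genes passed there: of 33 tested, 2 were higher in P3 (Ddit3 and Ppp1r15a), 3 were lower (Shmt1, Atf3 and Slc7a11) and 28 did not pass, where 18.8% of all 19993 genes tested were higher and 19.9% lower (38.7% in all). At an unadjusted p under 0.05, 11 of the 33 passed (33.3%), against 50.8% of all genes. The median log2 fold change was -0.07, against -0.0019 over all genes. P3 libraries lay above both P0 libraries for 8 genes and below both for 8, where 37.6% and 38.5% of all genes did so (76.1% in all), and the groups overlapped for 17. Slc7a3, Cth and Cbs, with at most 12 reads in a library, were not tested.

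Ddit3 had 30.7 and 51.7 CPM in P3 tumours, against 17.3 and 19.4 CPM in P0 tumours, a change of 1.17 ± 0.26 (adjusted p = 0.0196). Ppp1r15a had 18.9 and 25.1 CPM in P3 tumours, against 15.3 and 12.6 CPM in P0 tumours (0.66 ± 0.20, 0.047). In both genes the lower P3 library was above the higher P0 library. Atf3 had 2.48 and 2.59 CPM in P3 tumours, against 6.72 and 8.28 CPM in P0 tumours, a change of -1.56 ± 0.24 (0.00698). Shmt1 had 33.2 and 28.7 CPM in P3 tumours, against 51.2 and 54 CPM in P0 tumours (-0.77 ± 0.12, 0.00684). Slc7a11 had 7.47 and 11.8 CPM in P3 tumours, against 19.9 and 17.2 CPM in P0 tumours (-0.94 ± 0.25, 0.0333). The P3 libraries of Atf3 nearly coincided, while those of the other 4 genes were further apart. Each of the 5 calls was lost without P0 replicate 1 (adjusted p = 0.13 to 0.263) or without P0 replicate 2 (0.119 to 0.3), and in those fits no gene at all passed.

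Most of the set differed more between the P3 libraries than between the groups. The log2 gap between the P3 libraries was larger than the log2 change between the groups for 24 of the 33 genes tested. It was so for 24 of the 28 that did not pass, the others being Mthfd1, Slc1a5, Pycr1 and Gdf15, and for 0 of the 5 that passed. This split by call is largely set by the test, since a wide gap between replicates hinders a call. The same share over all genes was not computed. In P3 tumours, 32 of the 33 tested genes were higher in replicate 2 than in replicate 1, by a median of 0.78 on the log2 scale, where 46.6% of all genes were higher in replicate 2 and the median over all genes was -0.015. Shmt1 was the exception. In P0 tumours, replicate 2 was higher for 7 of the 33 genes and lower for 26, by a median of -0.21. Over all genes, 50.2% were higher in P0 replicate 2.

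Asns had 110 and 323 CPM in P3 tumours, against 457 and 384 CPM in P0 tumours (-0.96 ± 0.47, adjusted p = 0.156). Psat1 had 222 and 415 CPM in P3 tumours, against 354 and 315 CPM in P0 tumours (-0.07 ± 0.29, 0.862). The P3 libraries of Psat1 lay on either side of both P0 libraries. Atf4 showed the same layout, with 137 and 222 CPM in P3 tumours, against 211 and 191 CPM in P0 tumours (-0.16 ± 0.23, 0.595). Mthfd2 had 86.2 and 182 CPM in P3 tumours, against 120 and 96.9 CPM in P0 tumours (0.30 ± 0.34, 0.507). Phgdh had 233 and 326 CPM in P3 tumours, against 372 and 322 CPM in P0 tumours (-0.31 ± 0.18, 0.219), and there the P3 replicate 2 library fell between the P0 libraries. Trib3 had 17.7 and 67.1 CPM in P3 tumours, against 16.3 and 12.7 CPM in P0 tumours (1.55 ± 0.59, 0.0873). Chac1 had 15.2 and 32.2 CPM in P3 tumours, against 13 and 10.5 CPM in P0 tumours (1.01 ± 0.36, 0.0748). Both Trib3 and Chac1 were above P0 in each P3 library, though only just in replicate 1.

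The counts depended on which P3 library was left out. Without P3 replicate 1, 16 genes were higher and 4 lower in P3, and without P3 replicate 2, 3 were higher and 20 lower, each of 34 genes then tested. Over all genes, 22.6% were higher and 26.2% lower without P3 replicate 1, and 25.5% were higher and 28.0% lower without P3 replicate 2. Psat1 was then higher in P3 by 0.33 (adjusted p = 0.0163, without replicate 1), and Mthfd2 was lower, at -0.34 (0.0119, without replicate 2). Markers of other cells differed as well. The 12 macrophage markers summed to 465 and 433 CPM in P3 tumours, against 1760 and 2230 CPM in P0 tumours, and all 12 were lower. The 8 B-cell markers summed to 31.8 and 32.1 CPM in P3 tumours, against 199 and 381 CPM in P0 tumours, and all 8 were lower. Between the P3 libraries, fibroblast markers summed to 1690 CPM in replicate 1 and 1030 in replicate 2, and neutrophil markers to 13.3 and 52.6 CPM, against 2990 and 3060 CPM (fibroblast) and 3.08 and 3.18 CPM (neutrophil) in P0 tumours. The fibroblast list was not uniform, since Pdgfrb, a growth factor receptor, had 703 and 724 CPM in P3 tumours, against 348 and 306 CPM in P0 tumours, while Col1a1, a collagen chain, had 233 and 56.2 CPM in P3 tumours, against 782 and 737 CPM in P0 tumours. Their part in the differences of the stress genes was not tested.

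**Figure D5:**
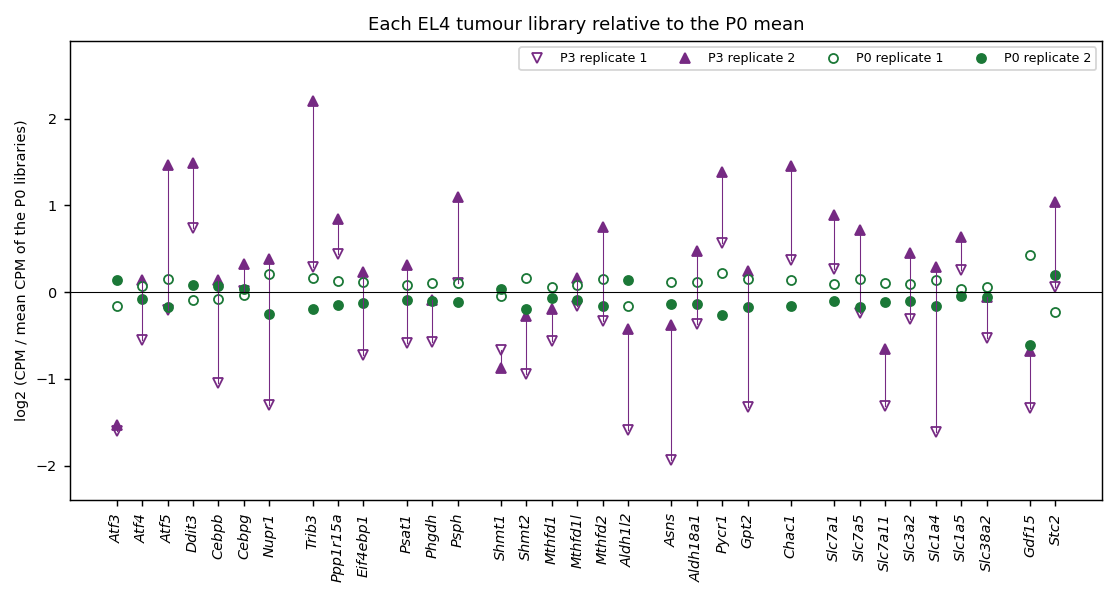
Level of each of the 33 tested genes in each EL4 tumour library as log2 of its CPM over the mean CPM of the 2 P0 libraries (y axis), grouped by role along the x axis. Purple triangles joined by a line are the P3 libraries (open, replicate 1; filled, replicate 2) and green circles the P0 libraries. The filled triangle stands above the open one for 32 of 33 genes.

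Per kilobase of exon, Slc7a5 had the highest mean level of the set in P3 tumours (126 CPM per kb, libraries 85.8 and 167) and Phgdh the next (112, libraries 93.7 and 131), and these 2 overlapped. In P0 tumours, Asns led at 154 CPM per kb (140 to 167) over Phgdh at 140 (130 to 150), again with overlap. Levels in tumours and in EG7 cells come from tables scaled separately and were not tested against each other.

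The lists around the pathway were also mixed in the tumours, and their counts stand against 18.8% higher and 19.9% lower over all genes. Of the 20 tRNA synthetases, 1 was higher in P3 (Lars, 0.88 ± 0.19), 3 were lower (Kars, Dars and Qars, at -0.66 ± 0.10, -0.74 ± 0.11 and -0.42 ± 0.09) and 16 did not pass. All 20 were higher in P3 replicate 2 than in replicate 1, by a median of 0.48 on the log2 scale. Without P3 replicate 1 the counts were 7 higher and 3 lower, and without P3 replicate 2 they were 2 and 9. Of 20 other amino acid and glutathione genes, 1 was higher in P3 and 9 were lower. Gclc, which makes the first peptide bond of glutathione, rose by 1.60 ± 0.10, and Ass1, the argininosuccinate synthase, fell by 1.50 ± 0.09 on the log2 scale. These counts were 1 higher with 11 or 13 lower when either P3 library was left out.

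Of 17 eIF2-related genes, 5 were higher in P3 and 3 lower, not far from those shares, with Impact, an inhibitor of the kinase GCN2, at 1.42 ± 0.12 and Eif2ak3, the kinase PERK of the endoplasmic reticulum, at -0.73 ± 0.11. Of 26 other ATF4 targets, 4 were higher and 6 lower, with Jdp2, a bZIP repressor, at 2.24 ± 0.23 and Ndrg1, a stress and hypoxia gene, at -1.85 ± 0.13. Without P3 replicate 1 these targets gave 8 higher and 7 lower. Of 18 other folate genes, 1 was higher and 5 lower, and of 22 chaperone and ATF6 or IRE1 genes, 4 were lower (Creld2 at -0.69 ± 0.10 among them) and 18 did not pass. Without P3 replicate 2, more genes of the chaperone list and of the folate list were lower. Without P3 replicate 1 the eIF2 genes gave 7 higher and 5 lower, and the folate genes 4 higher and 6 lower. As with the 36 genes, every call in these lists was lost without P0 replicate 1 or without P0 replicate 2.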

How the data were processed

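Total RNA was sequenced in 14 libraries, of which the 10 from EL4 tumours and EG7-OVA cells were used here. Gene counts were deposited by the authors. The submitters' processing notes name fastp, Trim Galore, STAR and featureCounts and the builds mm10 and GRCh38, with versions and strand setting not given in the sources used here. The EL4 counts are whole. The deposited EG7 counts, expected counts in kind, hold 145 values in 62 entries that were not whole, in 1 gene of the set (Ddit3), whose origin is not given. They were rounded for the fits.

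EL4 and EG7 were fitted separately with edgeR 4.0.16 under R 4.3.3 (filterByExpr, TMM scaling, 1 mean per group, glmQLFit, two-sided glmQLFTest, Benjamini-Hochberg over 19993 genes in EL4 and 19123 in EG7), with a threshold of 0.05. Standard errors are the log2 fold change over the root of F, and intervals are 95%. Intervals of read ratios cover counting error only. The tumour groups and the 3 EG7 groups gave 4 comparisons. Members and lists were chosen with earlier results of these data known. Values in every library are given for members past the threshold with no overlap, an absolute log2 fold of 1 or more and 1 CPM or more, and for a fixed set (Atf4, Ddit3, Asns, Psat1, Phgdh, Mthfd2, Chac1, Trib3 and Slc7a11), with others added where the text turns on them. The scripts were tested on simulated data. Results were recomputed with DESeq2 1.42.0, with limma-voom (limma 3.58.1), with median-ratio size factors, without a filter, with a stricter one, with a replicate block, at a log2 fold above 1, on the 4 libraries of a comparison alone, and without each library in turn. The titles number the DMSO libraries 2 and 3 where their library names say 1 and 2. Coordinates and exon lengths are GENCODE vM21 on mm10, and promoters are RefSeq.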

Additional observations from a re-analysis of the deposited data

How the results depend on the processing

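With 2 libraries per group, small changes were beyond these data, and the tumour calls rest on both P0 libraries. Counts in the tumours moved most. Genes of the set higher in P3 numbered 6 by DESeq2, and 1 each with no filter, with the replicate block and at a log2 fold above 1, and ranged from 0 to 16 without single libraries. Those lower numbered 1 at a log2 fold above 1 and ranged from 0 to 20 without single libraries. Over all genes, 4239 passed at a log2 fold above 1 and 0 to 11286 without single libraries. Psat1 in P3 against P0 ran from -0.6 to 0.33 and Mthfd2 from -0.34 to 0.76 without single libraries, the higher value of each without P3 replicate 1. For azacytidine against DMSO, 4 higher (Atf3 included) and 22 lower became 3 to 4 and 10 to 22 without single libraries. Over all genes 1675 to 3897 passed without single libraries. For decitabine against DMSO, 2 higher and 21 lower became 1 to 2 and 15 to 21. Over all genes 1520 to 3290 passed. Between the drugs, 378 genes passed with no filter, 177 by DESeq2 and 0 to 88 without single libraries, with none of the set among them.

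No label says that a replicate number marks a shared culture or day, and the numbers were not used as pairs. Same-numbered libraries deviated together with a correlation of -0.037 in the tumours, -0.257 between DMSO and azacytidine, -0.191 between DMSO and decitabine and 0.273 between the drugs. With the order of the DMSO libraries turned, the correlations with DMSO become 0.257 and 0.191, so that all 3 are positive, a hint from the data and not from the labels. With the replicate block, P3 against P0 gave 1 higher and 2 lower members and 5490 genes. It gave 4 and 21 with azacytidine, 2 and 21 with decitabine and no gene between the drugs. A block with the DMSO numbers crossed, added after seeing the data, gave 4 higher and 23 lower with azacytidine (4576 genes), 2 and 23 with decitabine (3922 genes) and 167 genes between the drugs.

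No other alternative moved a count of the set beyond 1.5 times, and calls of single genes lost or gained under limma-voom or with only the 4 libraries compared were those of Cebpb with azacytidine and of Phgdh, Pycr1, Mthfd1 and Slc1a5 with decitabine. The cause of these changes was not tested.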
